A study of Mus musculus with 20 samples.

Results

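The genes described here make, bind, sense and break down retinoic acid: Stra6, Rdh10, Aldh1a1, Aldh1a2, Aldh1a3, Crabp1, Crabp2, Rarb and Cyp26b1. They are 9 of the 30210 gene names and accessions on the array, and every non-control probe that carries one of these names was taken, which gave 11 of 39429 probes, 3 of them for Rarb and 1 for each other gene. Each probe was printed as 1 spot. The choice went by name and used no measured value.

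RNA came from the prefrontal cortex of adult male Swiss-Webster mice, cut as a slice of the frontal pole, and 3 mice were pooled for each sample. Stressed mice had been placed into the cages of unfamiliar groups of males, once (acute, killed 24 hours later), over 8 days, over 13 days, or over 13 days followed by 5 days of rest (recovery). Control mice of each time point were brothers of the stressed mice that were left undisturbed. All mice were housed singly during the experiment. Stressed and control mice lived in separate, adjacent rooms, so room and stress cannot be told apart. A stress pool and its control pool were hybridised together in 2 colours, with 3 such pairs for each time point. All pairs have an array that carries stress in Cy5, and for pools 2 and 3 a dye swap was used besides, so that 20 arrays of the 12 pairs are described. Dye swaps of pool 1 were not analysed here.

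Retinoic acid is made from vitamin A in steps. The membrane receptor Stra6 takes up retinol from its carrier in blood, Rdh10 oxidises retinol to retinal, and the enzymes Aldh1a1, Aldh1a2 and Aldh1a3 oxidise retinal to retinoic acid. Inside the cell, Crabp1 and Crabp2 bind the acid, Cyp26b1 breaks it down, and the nuclear receptor Rarb is both a sensor of the acid and a well known target of it, since a response element lies in its own promoter. In the brain, Aldh1a2 is best known from the meninges, and retinoid signalling in cortex and striatum is known for its part in the growth of neurons and in synaptic plasticity.

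The sequences that carry the measurements are shown for the genes on which the results turn. Each line gives the first 30 of the 60 bases of a probe as the array lists it, with its place in mm9, and for Rarb the 3 probes are given because they lie at different places in the gene.
Aldh1a3 (A_52_P87843, chr7:73535815-73535844, minus strand): ggggattttgatcttaagttcagattgtgt
Stra6 (A_55_P1973451, chr9:58001701-58001730, plus strand): atgccattagttgtcatgaaagaagttagt
Rdh10 (A_52_P59318, chr1:16122062-16122091, plus strand): attaaatgtttagagacctggttaatccac
the first Rarb probe (A_55_P1962154, chr14:17263397-17263426, minus strand): gctttctatgttcatatactgtttaccttt
the second Rarb probe (A_55_P2084807, chr14:17264678-17264707, minus strand): aattctgaaggacatgaacccttgacccca
the third Rarb probe (A_55_P2099585, chr14:17651454-17651483, minus strand): tattgagcctgtttgcacacactcaccacc
The third Rarb probe was designed on another transcript, and its target lies far upstream of the others. Of the 11 probes, 0 shared a run of 20 bases with any other probe of the array. Exons and untranslated parts of mm9 were not analysed here.

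The promoters of 6 of the 9 genes were matched in RefSeq (GRCm38.p6, 250 bases before to 50 after each start site, 10 promoters). They were searched on both strands for a retinoic acid response element, written as a pair of hexamers in the same direction with 1, 2 or 5 bases between them, where a hexamer is A or G, then G, then G or T, then TCA. Such a pair was found in 1 of the 10, that of Rarb, and in 0.588% of all 32851 promoters of this length. It is shown because Rarb is the receptor gene that serves as a textbook target, with the hexamers in capitals.
Rarb promoter (chr14:16575506-16575535, minus strand): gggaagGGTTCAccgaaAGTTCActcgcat
The pair starts at base -53 and ends at base -37 from the start site, with 5 bases between the hexamers, a spacing found in 0.0974% of all promoters. A match of letters describes the sequence and not the binding of a receptor.

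Between 71.0% and 74.9% of spots on an array were well above background in at least 1 colour, and the number of arrays limits the precision. A value below is a log2 ratio of stress over control for a pool, the mean of its arrays after dye swaps were turned, and a positive value means a brighter signal in stressed mice. On 9 of the 20 arrays, 4 to 37 spots had a local background more than 50 units above their own signal. With every local background subtracted, these spots widened the fitted background noise of those arrays to between 11.01 and 6019 units, against 0.963 to 2.40 on the other 11, and the SD of log2 ratios shrank to 0.068 to 0.14, against 0.13 to 0.20. Local backgrounds that the scanner software itself marked as outliers were therefore replaced by the median background of the array, after which all 20 arrays had an SD of 0.13 to 0.20. This step was added after the data had been seen. Values with every local background subtracted are given beside those genes whose pools it moved most. After the swaps were turned, original and swap of the same pool correlated negatively over all probes, with r from -0.358 to -0.0947 in the 8 pools with both arrays, so that a probe tended to be on opposite sides on both arrays. For 6 of the 11 retinoid probes the original exceeded its swap in 8 of 8 pools, and 21.5% of all probes had such a fixed sign. In pool 1, where the original alone was analysed, dye and stress cannot be told apart.

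A call required a limma adjusted p below 0.05 over all probes and a log2 ratio beyond 0.5 in either direction. Of the 11 probes, 0 were called at any of the 4 time points. Acute stress had 0.00507% of all 39429 probes called, 8 days 0.00254%, 13 days 0.0279% and recovery 0%. For the differences between time points, 0 of the 11 probes were called for 13 days minus acute (0.0127% of all probes) and 0 for recovery minus 13 days (0% of all probes). The lowest adjusted p of a retinoid probe was 0.624 for acute stress, 0.532 for 8 days, 0.179 for 13 days and 0.984 for recovery. At an unadjusted p under 0.05 there were 3 of the 11 probes after acute stress (6.46% of all probes), 2 after 8 days (4.2%), 3 after 13 days (8.61%) and 0 in recovery (4.09%). For 13 days minus acute there were 4 (6.08%), and for recovery minus 13 days 1 (5.11%). With so few probes these shares describe the genes and are no test of them.

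After 13 days, 6 of the 11 probes were higher in stress in all 3 pools (18% of all probes) and 2 were lower in all 3 (15.5%). The higher ones belong to Stra6, Rdh10, Aldh1a1 and Crabp2 and are the first and second Rarb probes, and the lower ones belong to Aldh1a2 and Aldh1a3. Stra6, Aldh1a1 and Crabp2 are among the probes whose original exceeded its swap in 8 of 8 pools, and their pool 1 has the original alone. With every local background subtracted, 4 of the 11 were higher in all 3 pools (12.2% of all probes), since pool 3 of Aldh1a1 and of Crabp2 fell just below 0 (both -0.02), and 2 were lower (14.4%). The deposited table also had 4 higher (12.8%) and 2 lower (14.3%). After acute stress, 2 were higher in all 3 pools (14.7% of all probes) and 1 was lower (14.1%). After 8 days, 2 were higher (11.8%) and 2 lower (10.7%), and in recovery 1 was higher (11.8%) and 1 lower (11.5%). The 11 probes had a median log2 ratio of 0.015 for acute stress, 0.066 for 8 days, 0.086 for 13 days and 0.043 for recovery, and that of all probes lay between 0.0022 and 0.0038.

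**Figure D1:**
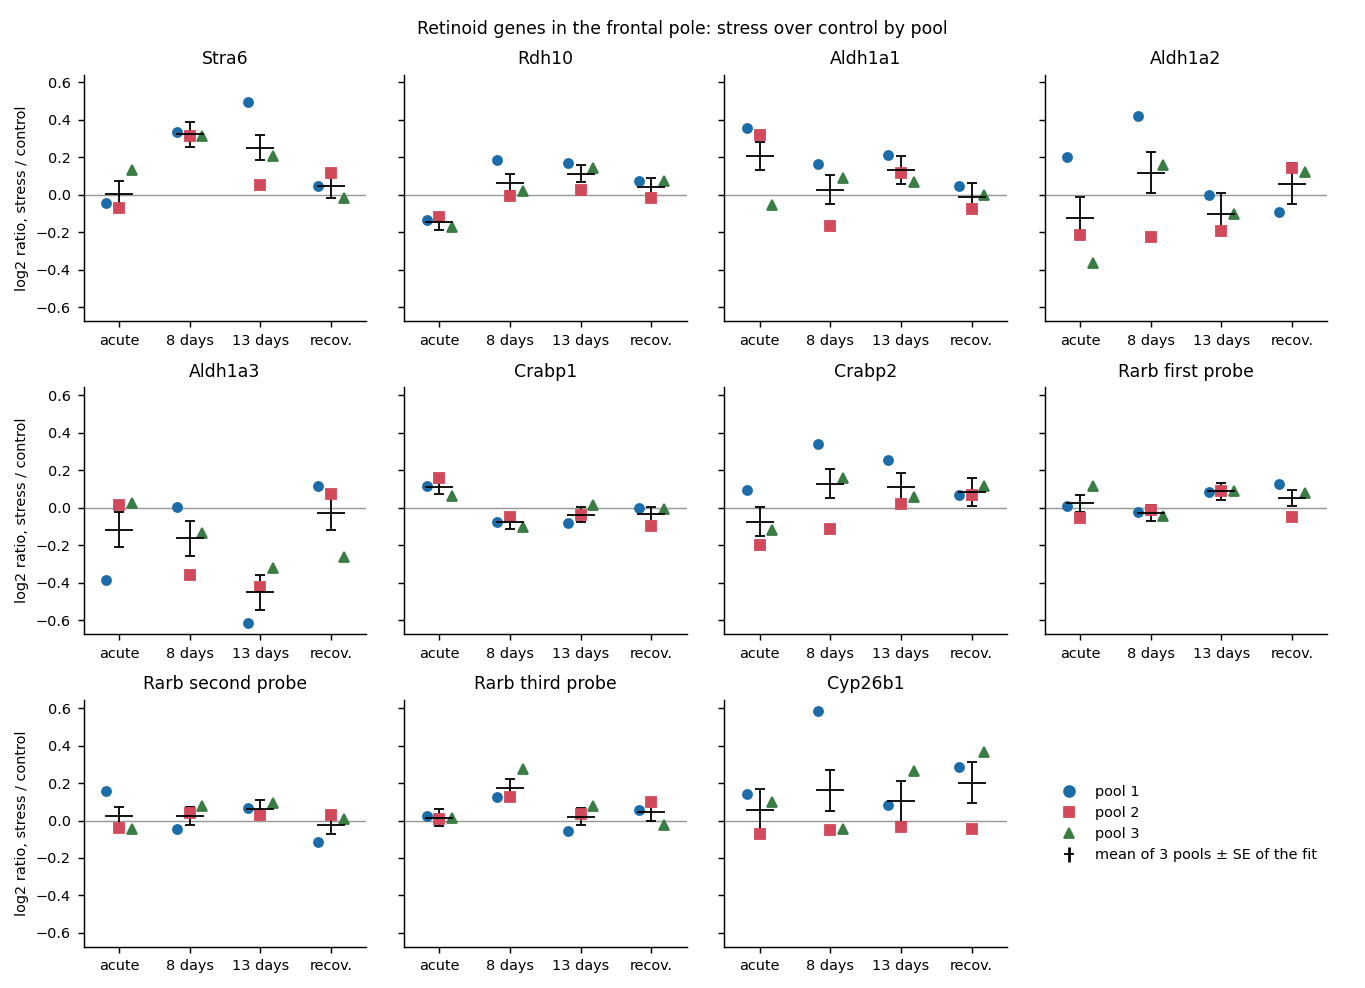
Log2 ratio of stress over control (y axis) for the 11 retinoid probes at the 4 time points (x axis), with a marker for each of the 3 pools, a bar for their mean and whiskers for the SE of the limma fit. Aldh1a3 was below 0 in all 3 pools after 13 days (-0.61 to -0.32), Stra6 lay close to 0.32 in all 3 pools after 8 days, and Rdh10 was below 0 in all 3 pools after acute stress and above 0 in all 3 after 13 days.

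Stra6, the retinol receptor, was higher in stressed mice in all 3 pools after 8 days and after 13 days, without passing the test. Its log2 ratios in pools 1 to 3 were -0.04, -0.07 and 0.13 after acute stress, 0.34, 0.32 and 0.31 after 8 days, 0.49, 0.05 and 0.21 after 13 days, and 0.05, 0.12 and -0.02 in recovery. The pools of 8 days lay close together (SD 0.013), while those of 13 days spread widely (SD 0.22), with pool 1 the highest. The mean was 0.32 after 8 days (1.25-fold, SE 0.067, n = 3 pools, limma adjusted p = 0.532) and 0.25 after 13 days (SE 0.067, n = 3 pools, limma adjusted p = 0.321). With every local background subtracted, the 8-day pools were at 0.34, 0.11 and 0.05 and their mean was 0.17 (limma adjusted p = 1), with pool 1 hardly moved and pools 2 and 3 much lower. The pools also lay apart in the deposited table (0.06 to 0.45). They stayed together with 1 background per array (0.31 to 0.38), with an offset of 0 (0.43 to 0.45) and in the scanner software's own log ratio (0.46 to 0.56).

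Stra6 also depended on the dye. On all 8 pools with a dye swap, the array with stress in Cy5 gave the higher ratio, by a median of 0.15 to either side of the pool's value, which was larger than for 91.6% of all probes. After 8 days the swaps of pools 2 and 3 were still above 0, at 0.09 and 0.21, against 0.54 and 0.42 on the originals. After 13 days these swaps were at -0.08 and 0.07, against 0.18 and 0.34 on the originals, and pool 1 had the original alone. With a dye term over the 20 arrays the 8-day value was 0.29 (limma adjusted p = 0.0246), and with the slide as a block it was 0.32 (limma adjusted p = 0.0168), both under the size of 0.5 that a call needs. Without these terms the same arrays gave 0.32 with an adjusted p of 0.0819 (pool as a random block, limma) or 0.442 (arrays as independent samples, limma), so the p of Stra6 depended on the model. The fits with the dye or the slide treat arrays of 1 pool as nearly independent, since the correlation estimated within pools was -0.0466 with the dye term and -0.0598 with the slide.

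Rdh10, which carries out the first oxidation of retinol, lay on opposite sides of 0 after acute stress and after 13 days. In pools 1 to 3 its log2 ratios were -0.14, -0.12 and -0.17 after acute stress, 0.18, -0.01 and 0.02 after 8 days, 0.17, 0.03 and 0.14 after 13 days, and 0.07, -0.02 and 0.07 in recovery. All 3 pools were lower after acute stress and all 3 were higher after 13 days, with no overlap between these time points. The mean was -0.14 after acute stress (SE 0.046, n = 3 pools, limma adjusted p = 0.624) and 0.11 after 13 days (SE 0.046, n = 3 pools, limma adjusted p = 0.529), and the difference of 0.26 (SE 0.065) had a limma adjusted p of 0.434. Over the alternatives tried, the acute value stayed between -0.22 and -0.10 and the 13-day value between 0.08 and 0.19. Its dye swaps differed from the originals with no fixed sign, in 4 of 8 pools each way.

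Of the enzymes that make the acid, Aldh1a3 had the largest ratio among the 11 probes, at 13 days. Pools 1 to 3 had log2 ratios of -0.39, 0.01 and 0.03 after acute stress, 0.01, -0.36 and -0.14 after 8 days, -0.61, -0.42 and -0.32 after 13 days, and 0.11, 0.07 and -0.27 in recovery. All 3 pools were lower after 13 days, and at each other time point at least 1 pool was at or above 0. The mean at 13 days was -0.45 (1.37-fold lower, SE 0.094, 95% interval -0.66 to -0.25, n = 3 pools, limma adjusted p = 0.179), and at the other time points it lay between -0.16 and -0.03. The difference of recovery from 13 days was 0.43 (SE 0.13, limma adjusted p = 0.852) and that of 13 days from acute stress was -0.34 (SE 0.13, limma adjusted p = 0.798).

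The dye had no fixed sign for Aldh1a3, whose original lay below the swap in 5 of 8 pools. After 13 days the original and the swap of pool 2 were at -0.44 and -0.40, while those of pool 3 were further apart, at -0.17 and -0.47. Its signal was low, the size of its ratio changed with the background correction, and the spot was not well above background in green on 1 of 20 arrays, that of a stress pool of 13 days. The scanner software's own log ratio put the 13-day pools at -1.39, -1.22 and -0.50 (mean -1.04, limma adjusted p = 0.217), and normexp with an offset of 0 gave a mean of -0.88 (limma adjusted p = 0.375). With every local background subtracted at an offset of 50 the pools were at -0.61, -0.42 and -0.22. With the 20 arrays fitted and the pool as a random block, the limma adjusted p was 0.0185 with slides as fixed blocks and 0.00779 with a dye term. The log2 ratio was -0.42 in both, which is under the size a call needs. Without these terms the limma adjusted p was 0.00436 (pool as a random block) or 0.0134 (arrays as independent samples). The correlation estimated within pools was -0.306 without these terms, -0.0598 with slides and -0.0466 with the dye. None of these fits thus counted arrays of 1 pool as repeats of each other, unlike the fit over pools (limma adjusted p = 0.179). Without pool 1 of 13 days the ratio was -0.37 (limma adjusted p = 1).

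**Figure D2:**
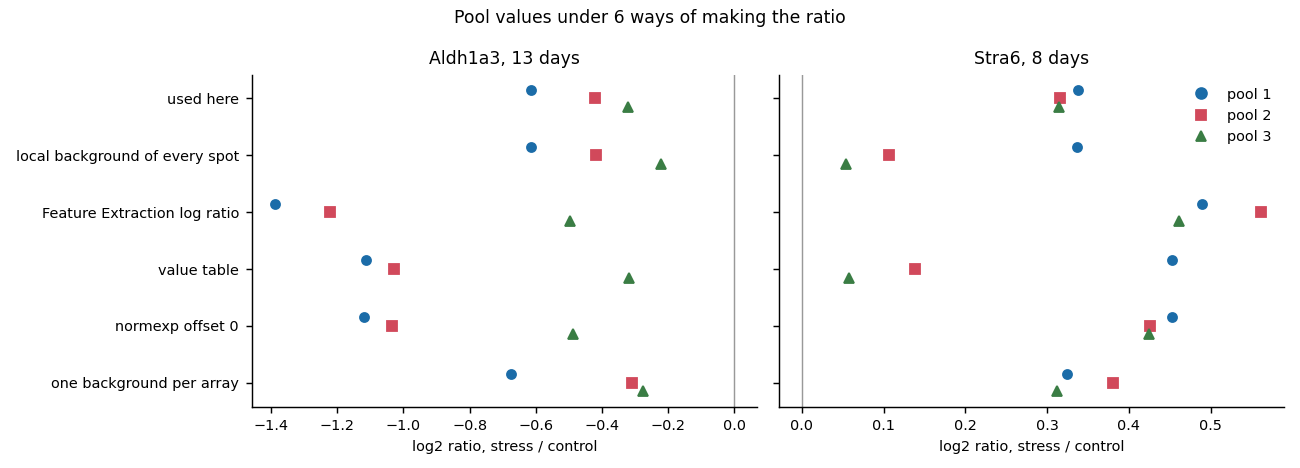
Log2 ratios of stress over control (x axis) of Aldh1a3 after 13 days and of Stra6 after 8 days, with a marker for each pool, under 6 ways of making the ratio (y axis). Every marker of Aldh1a3 lies below 0 and every marker of Stra6 above 0, and the distance from 0 changes with the method, from -0.22 to -1.39 for Aldh1a3.

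Aldh1a1, the enzyme of this family known from dopamine neurons, was higher after acute stress in 2 of 3 pools. Its log2 ratios in pools 1 to 3 were 0.36, 0.32 and -0.05 after acute stress, 0.16, -0.17 and 0.09 after 8 days, 0.21, 0.12 and 0.07 after 13 days, and 0.05, -0.08 and 7e-04 in recovery. Pool 3 of the acute time point stood on the other side of 0 from pools 1 and 2. The mean after acute stress was 0.21 (SE 0.076, n = 3 pools, limma adjusted p = 0.703) and that after 13 days, where all 3 pools were above 0, was 0.13 (SE 0.076, n = 3 pools, limma adjusted p = 0.648). On all 8 pools with a swap, the original gave the higher ratio, by a median of 0.13 to either side.

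Aldh1a2, the enzyme best known from the meninges, differed in sign between pools of the same time point. In pools 1 to 3 its log2 ratios were 0.20, -0.21 and -0.36 after acute stress, 0.42, -0.23 and 0.16 after 8 days, -0.0016, -0.19 and -0.10 after 13 days, and -0.09, 0.14 and 0.12 in recovery. Pools of both signs occurred at 3 of the 4 time points. The SD between pools was 0.29 after acute stress and 0.32 after 8 days, and the largest mean was -0.12, after acute stress (SE 0.11, n = 3 pools, limma adjusted p = 0.913). After 13 days, the only time point with all 3 pools below 0, the stress pools lay between 9.26 and 9.40 in log2 signal and just missed the control pools, between 9.40 and 9.46.

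**Figure D3:**
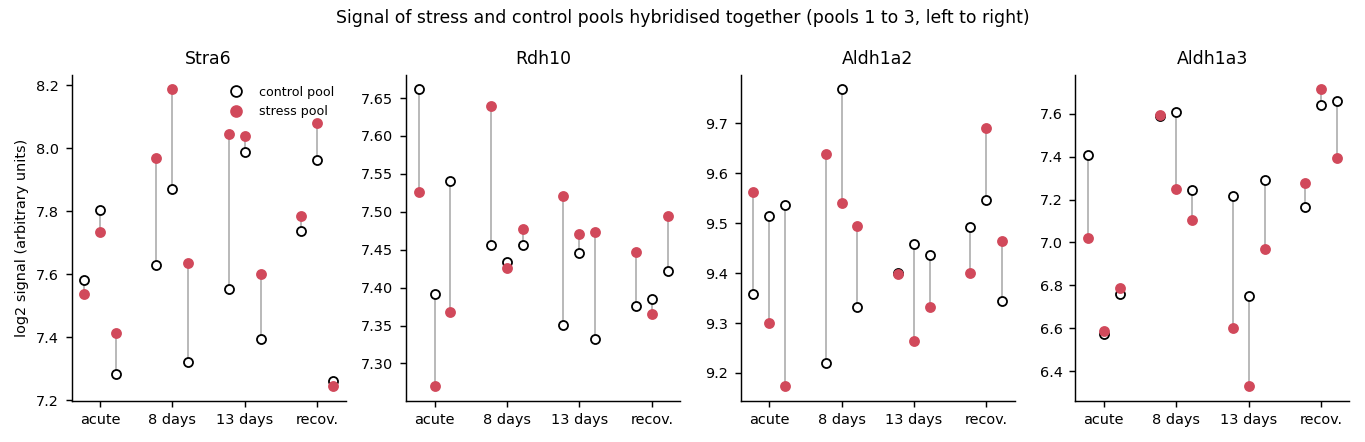
Log2 signal (y axis, arbitrary units) of control pools (open) and stress pools (filled) for Stra6, Rdh10, Aldh1a2 and Aldh1a3 at the 4 time points (x axis), with pools 1 to 3 from left to right and a line joining the pools hybridised together. For Aldh1a3 after 13 days each stress pool lies under its control pool, while the control pools themselves range from 6.75 to 7.29.

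In the signals behind these ratios, control pools of Aldh1a3 differed among themselves by more than stress and control did. The log2 signal of Aldh1a3 in control pools was 6.92 ± 0.44 (SD, n = 3 pools) at the acute time point, 7.48 ± 0.21 at 8 days, 7.09 ± 0.29 at 13 days and 7.49 ± 0.28 in recovery, and in stress pools it was 6.80 ± 0.22, 7.32 ± 0.25, 6.63 ± 0.32 and 7.46 ± 0.23. Stress and control pools of Aldh1a3 overlapped at all 4 time points when the pairing was ignored. The order of time points from high to low was recovery, 8 days, 13 days and acute in controls, and the ranges of neighbours in that order overlapped. Each time point took the same place on every slide, so time point and place on the slide cannot be told apart in these levels. Stra6 in control pools had means of 7.56 to 7.65 over the time points, with SDs of 0.26 to 0.36, and stress pools had 7.93 ± 0.28 (SD, n = 3 pools) at 8 days. Rdh10 control pools ranged from 7.33 to 7.66 and Aldh1a2 control pools from 9.22 to 9.77. In a slice of tissue, fewer cells of a type and less RNA per cell cannot be told apart.

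The binding proteins did not pass the test, and for Crabp1 the size of the ratio changed with the background correction. Crabp1, a carrier of the acid in the cytoplasm, was dim, well above background on 15 of 20 arrays in red and on 6 in green, so that its ratios have little signal behind them. Pools 1 to 3 had log2 ratios of 0.12, 0.16 and 0.06 after acute stress, -0.08, -0.05 and -0.10 after 8 days, -0.08, -0.04 and 0.01 after 13 days, and -0.0011, -0.10 and -0.01 in recovery. All 3 pools were above 0 after acute stress and all 3 below 0 after 8 days, and at 8 days the stress signals did not overlap the control signals. The acute mean was 0.11 (SE 0.039, n = 3 pools, limma adjusted p = 0.67), and median centring in place of loess turned it to -0.21. An offset of 0 gave 0.35 after acute stress and -0.22 after 8 days, and the deposited table gave 0.32 after acute stress. With every local background subtracted, the 8-day pools lay between -0.08 and 0.02, and with 1 background per array between -0.12 and 0.06, so that they no longer shared a sign. Crabp2, which hands the acid to its receptor in the nucleus, had log2 ratios in pools 1 to 3 of 0.10, -0.20 and -0.12 after acute stress, 0.34, -0.11 and 0.16 after 8 days, 0.26, 0.02 and 0.06 after 13 days, and 0.07, 0.07 and 0.11 in recovery. Its pools crossed 0 after acute stress and after 8 days and were all above 0 later, with a largest mean of 0.13 at 8 days (SE 0.076, n = 3 pools, limma adjusted p = 0.989). On all 8 pools with a swap, the original of Crabp2 gave the higher ratio, by a median of 0.11 to either side. After 13 days its swaps of pools 2 and 3 were at -0.12 and -0.05, against 0.16 and 0.17 on the originals. Its recovery pools lay between -0.03 and 0.07 with every local background subtracted.

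The 3 probes of Rarb, the receptor, differed in their ratios, and none passed the test. The first had log2 ratios in pools 1 to 3 of 0.08, 0.09 and 0.09 after 13 days (mean 0.09, SE 0.044, n = 3 pools, limma adjusted p = 0.609), and between -0.06 and 0.12 in the other 9 pools. The second had 0.06, 0.03 and 0.09 after 13 days, and between -0.12 and 0.16 in the other pools. The third had 0.13, 0.12 and 0.28 after 8 days (mean 0.18, SE 0.044, n = 3 pools, limma adjusted p = 0.796), while the first and second were at -0.03 and 0.02 at that time point. The third probe was dim in green, where it was well above background on 5 of 20 arrays, and its swaps after 8 days were at 0.05 and -0.01 against 0.20 and 0.56 on the originals. The size of this ratio depended on the processing, at 0.67 in the scanner software's log ratio, 0.48 with an offset of 0, 0.05 with every local background subtracted and -0.03 with median centring in place of loess. Over the 12 pools, the log2 ratios of the first and second probes correlated at r = -0.225 (Spearman's rho -0.21), so these probes did not vary alike.

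Cyp26b1, which breaks the acid down, had the largest dye difference of the 11 probes. Its log2 ratios in pools 1 to 3 were 0.14, -0.07 and 0.10 after acute stress, 0.58, -0.05 and -0.05 after 8 days, 0.08, -0.03 and 0.26 after 13 days, and 0.28, -0.05 and 0.36 in recovery. Pool 2 was below 0 at all 4 time points, and pool 1, whose original alone was analysed, was above 0 at all 4. The largest mean was 0.20, in recovery (SE 0.11, n = 3 pools, limma adjusted p = 0.984). On the 8 pools with a swap, the original exceeded the pool's value by 0.21 to 0.43, a median of 0.30 that was larger than for 99% of all probes. With a dye term over the 20 arrays, the recovery value was 0.13 and the 8-day value 0.02. The recovery value was 0.10 with every local background subtracted, with pools from -0.11 to 0.28.

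**Figure D4:**
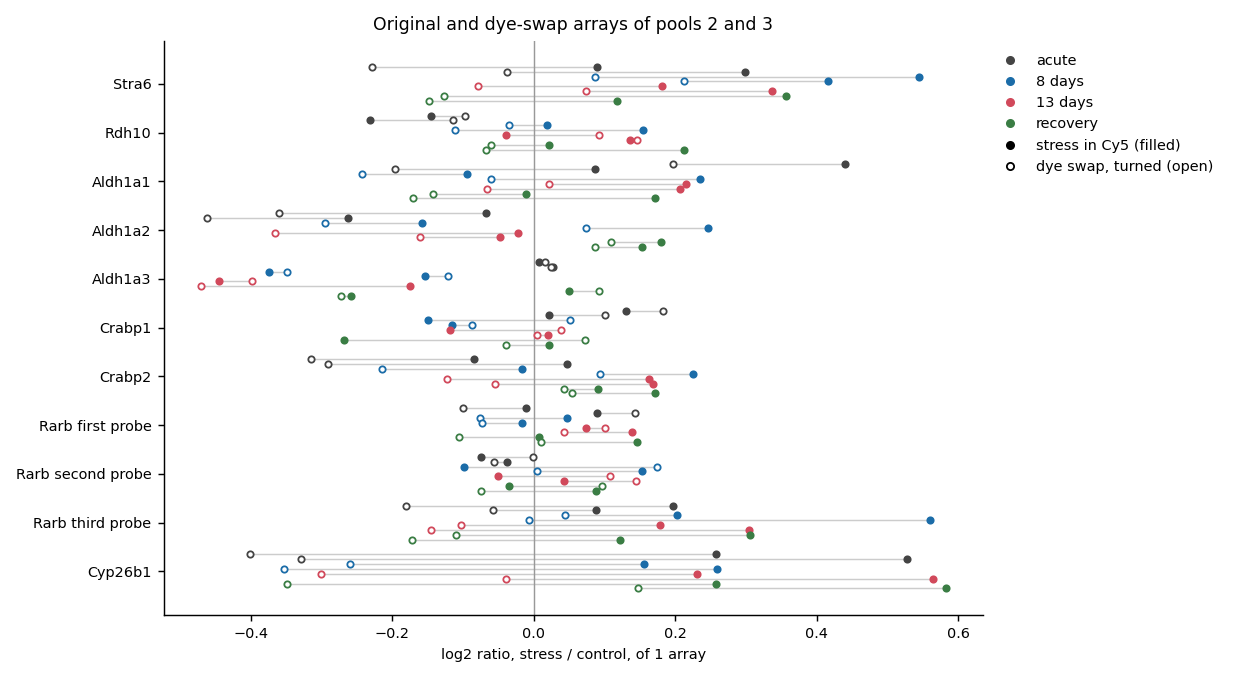
Log2 ratio of stress over control on the original array (stress in Cy5) and on its dye swap, turned to the same direction, for the 11 retinoid probes in the 8 pools with both arrays. The originals of Cyp26b1 lie far above its swaps in 8 of 8 pools, while those of Aldh1a3 and Rdh10 lie on both sides of their swaps.

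The rest of the retinoid pathway was described by 64 other genes in 6 lists, and 0 of the 64 were called at any time point. Calls were rare over all 22362 genes too, with 1, 1, 9 and 0 at the successive time points. A ratio above 0 was found for 31 of the 64 under acute stress, 32 at 8 days, 33 at 13 days and 32 in recovery. Among all 22362 genes it was found for 11547, 11874, 11792 and 12087. The median log2 ratio of the 64 lay between -8e-04 and 0.0025, against 0.0022 to 0.0056 over the 22362 genes. The acute ratio nearest to a call was that of Cyp2s1, a cytochrome P450 that can oxidise retinoic acid, with pools 1 to 3 at 0.36, 0.40 and 0.30 (mean 0.35, SE 0.058, n = 3 pools, limma adjusted p = 0.124). Of the 4 genes of breakdown and delivery, 1 was above 0 at each of the stress time points and 2 in recovery. The later means of Cyp2s1 were 0.11 after 8 days, 0.11 after 13 days and 0.01 in recovery. Fabp5, which can carry the acid to another nuclear receptor, had -0.17 after 8 days (SE 0.058, n = 3 pools, limma adjusted p = 0.989).

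Of 10 genes for uptake, transport and storage of retinol, 8 were below 0 after acute stress and 6 were above 0 after 13 days. Lpl, the lipoprotein lipase, had acute pools at -0.17, -0.45 and -0.33 (mean -0.31, SE 0.076, n = 3 pools, limma adjusted p = 0.371). Of 22 genes listed under oxidation and reduction of retinol and retinal, 14 were above 0 after acute stress and 11 after 13 days. Rdh5 had -0.10 after 13 days (limma adjusted p = 0.516) and Aldh8a1, which oxidises 9-cis-retinal, had -0.09 after acute stress (limma adjusted p = 0.776).

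The 6 other nuclear receptors of this group were within 0.11 of 0 at all time points. In recovery 0 of the 6 were above 0, with Rxrb, a partner of the retinoic acid receptors, at -0.11 (SE 0.060, n = 3 pools, limma adjusted p = 0.984), and Rarg was at 0.09 after 8 days (limma adjusted p = 0.989). Of 10 coregulators, 3 were above 0 after 13 days, with the acetyltransferase Ep300 at 0.13 (limma adjusted p = 0.581). Of 12 genes known to respond to retinoic acid, 7, 8, 8 and 9 were above 0 at the successive time points. Ret, a growth factor receptor, had 0.17 after acute stress (SE 0.050, n = 3 pools, limma adjusted p = 0.565), and Rarres2, which encodes chemerin, had 0.17 after 8 days (SE 0.061, n = 3 pools, limma adjusted p = 0.989). Ratios of this size came with no call in any of the 6 lists.

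Of 12 markers of cortical projection neurons, 11 were well above background on all 20 arrays, as were 11 of 12 striatal and 9 of 11 olfactory bulb markers. So were 15953 of all 22362 genes, and these counts do not single out the labelled tissue. Of 20 markers of meningeal fibroblasts 20 were well above background, which does not show from which cells their RNA came. After acute stress 19 of these 20 meningeal markers were below 0 (median log2 ratio -0.14). After 8 days 19 were above 0 (0.11), after 13 days 16 (0.10) and in recovery 16 (0.04). Over all 22362 genes, 10815 were below 0 after acute stress, and 11874, 11792 and 12087 were above 0 at the later time points. Mgp, an inhibitor of calcification made by meningeal fibroblasts and by vascular cells, was the 1 called among the 20. It was called after 8 days (0.74, limma adjusted p = 0.0158) and after 13 days (0.88, limma adjusted p = 0.000996). The summed signal of the 20 genes was lower in stress in every acute pool, with log2 ratios from -0.29 to -0.20, and higher in every pool of 8 days (0.0057 to 0.39) and 13 days (0.06 to 0.26). Rdh10 was likewise below 0 in every acute pool and above 0 in every pool of 13 days, while its pool 2 of 8 days was at -0.01.

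Over the 12 pools, the log2 ratio of Rdh10 correlated with that of the summed meningeal signal at r = 0.902 (rho 0.846), and at 0.737 after the mean of each time point was taken off. For Crabp2 the values were r = 0.78 (rho 0.755) and 0.775, and for Aldh1a2 r = 0.572 (rho 0.531) and 0.762. Stra6 had r = 0.694 (rho 0.664), but 0.326 within time points, and Aldh1a3 had r = -0.185. The dim Crabp1 probe went the other way, at r = -0.822 (rho -0.727), and -0.245 within time points. Without the 2 pools farthest from the median the values were 0.812 for Rdh10, 0.927 for Crabp2, 0.765 for Aldh1a2, 0.741 for Stra6 and -0.755 for Crabp1. Other lists also gave large values, with r = -0.769 for Rdh10 and astrocyte genes and -0.727 for Crabp2 and oligodendrocyte genes. Aldh1a2 had 0.586 with microglial genes, and within time points -0.866 with oligodendrocyte and 0.811 with striatal genes. Aldh1a2 and Crabp2 also followed each other, at r = 0.823 (rho 0.874). These are descriptions out of 110 pairs of a probe and a marker list and 55 pairs of probes, and the points share arrays, slides and dye. The part of meningeal RNA in the ratios of Rdh10, Crabp2, Aldh1a2 and Stra6 was not tested.

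**Figure D5:**
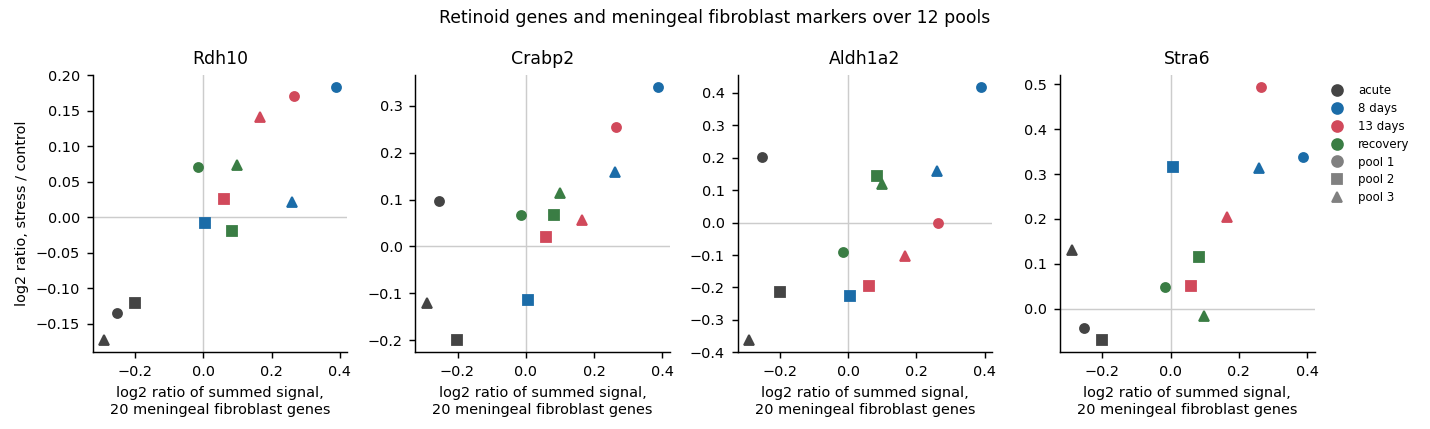
Log2 ratio of Rdh10, Crabp2, Aldh1a2 and Stra6 (y axis) against the log2 ratio of the summed signal of 20 meningeal fibroblast genes (x axis), with 1 point for each of the 12 pools and the time points marked. The acute pools lie to the left in all panels, and Rdh10 climbs most evenly from left to right (r = 0.902).

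The summed signals of other cell types are given as log2 ratios of stress over control. Of 8 red cell genes 6 were called after 13 days, all higher in stress, with a summed signal at 1.19 to 1.60. Among all 22362 genes 9 were called at that time point. The summed signal of 14 choroid plexus genes was 0.11 to 0.27 after 13 days and 0.14 to 0.18 after 8 days. That of 12 endothelial genes was 0.07 to 0.19 after 8 days, where Stra6 was high in all 3 pools. The endothelial sum was -0.08 to 0.04 after 13 days, where Stra6 was above 0 in all 3 pools as well. Stra6 correlated with the choroid plexus sum at r = 0.533 and with the endothelial sum at r = 0.386, but within time points at -0.012 and -0.112. After 13 days, where Aldh1a3 was low, the summed signal of 10 astrocyte genes was -0.09 to -0.01. Of these genes 8 were below 0 (median -0.10), with Aqp4, the water channel of astrocyte endfeet, at -0.31 (limma adjusted p = 0.319). Aldh1a3 correlated with the astrocyte sum at r = 0.241, and at -0.604 within time points. Aldh1a1 correlated with the summed signal of 12 striatal genes at r = 0.769 (rho 0.678), and at 0.47 without the 2 farthest pools. For 11 olfactory bulb genes the summed signal ran from -0.22 to 0.05 under acute stress and from -0.10 to 0.12 at 13 days, and that of 10 microglial genes was -0.07 to 0.13 after 13 days. Oligodendrocyte genes were higher after acute stress in 9 of 10 cases, with Mobp, a myelin protein, called at 0.52 (limma adjusted p = 0.00885). The part of these cell types in the ratios of Stra6, Aldh1a1 and Aldh1a3 was not tested.

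The genes whose log2 ratios over the 12 pools were most like each retinoid gene were looked up among 14368 other genes well above background on all arrays. Those of Rdh10 were Nid1, a basement membrane protein (r = 0.957), Pgm5 (0.935) and Tbx15 (0.916). Those of Stra6 were Dok1 (0.934), Vill (0.853) and Mgp (0.836). Mgp was thus the only called gene among them. Those of Crabp2 were Sned1 (0.979), Bmp6 (0.939) and Zfp936 (0.932), and those of Aldh1a2 were Aldh4a1 (0.954), Astn1 (0.95) and Wfikkn2 (0.942). For Aldh1a1 they included Gad1, which makes the transmitter GABA (0.92), with Tagap1 (0.906) and Satb1 (0.903). For Aldh1a3 the highest were lower, with Mical1 (0.9), Oxa1l (0.895) and Tfr2, a transferrin receptor (0.893). The first Rarb probe was most like Pigf (0.873), Ugdh (0.867) and Adcy7 (0.836), and those like Cyp26b1 included Pcdhb17 (0.852) and Atp1b3 (0.846). For the dim Crabp1 probe they included Myadml2 (0.949) and Cyp4f14 (0.891). Values this high are the top of a long list and describe these 12 pools.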

How the data were processed

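Labelled RNA of stress and control pools was hybridised to 2-colour Agilent mouse arrays. The authors read each array with Agilent Feature Extraction 10.10.1.1 (design on mm9) and deposited, per the file headers, mean spot and local background intensity in each colour, the software's log10 ratio, and marks for outlier, saturated and dim spots. The authors' deposited table of log2 ratios had, per the methods, normexp, loess and Aquantile normalization in limma. It served as an alternative, with its direction read from its correlation with the scanner ratios and its offset not given in the sources used here.

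Mean intensities were background-corrected with normexp (offset 50) in limma 3.58.1 (R 4.3.3, statmod 1.5.0, version 1.17.8 of data.table, jsonlite 2.0.0), then loess and Aquantile normalized. Aquantile leaves ratios unchanged. The replacement of local backgrounds that the software marked as outliers (24 to 678 spots per array in green and 646 to 1329 in red, of 44397) by the array's median was not in the planned analysis and was added after the data were seen. Results with every local background, and with 1 background per array and colour, are alternatives. Outlier spots were left out, spots of a probe averaged, swaps turned and averaged with their original. The fit had 1 coefficient per time point over 12 pools, with Benjamini-Hochberg adjustment over 39429 non-control probes. Calls required an adjusted p below 0.05 with a log2 ratio beyond 0.5 in either direction. Probes, lists and tests were chosen with earlier results of these data known. The code was tested on simulated data.

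Each pool is separate mice, so the spread is between pools of 3 mice. Groups and dyes came from the labels. List genes had 1 probe each, the brightest, and an olfactory bulb gene listed under an old and a new name was counted once. Dye swaps of pool 1 were not analysed here. Named genes were all retinoid probes, called genes of a list, and genes picked by rank. The picks were the 2 of each pathway list with the lowest p, the 2 of each marker list with the largest ratio at 13 days, and the 3 genes most like each retinoid gene. Only these picks had to be well above background on all 20 arrays. Not every gene that the rule selects is reported here.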

Additional observations from a re-analysis of the deposited data

Results flagged for a closer look

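For 3 genes, every pool of one time point lay on the other side of 0 from every pool of another. The share of all probes with such a separation was not counted here. At each time point, 10.7% to 18% of all probes lay on a given side of 0 in all 3 pools. The difference was then tested in the limma fit, on the same values by which these genes were picked. Rdh10 was at -0.14 after acute stress and 0.11 after 13 days, a difference of 0.2554 (SE 0.065, limma adjusted p = 0.434). Crabp1 was at 0.11 after acute stress, -0.08 after 8 days and -0.04 in recovery, with differences of -0.1883 (SE 0.056, limma adjusted p = 1) and -0.1478 (SE 0.056, limma adjusted p = 0.913) on a dim probe. With 1 background per array and colour its acute and 8-day pools no longer shared a sign within a time point. The first Rarb probe was at -0.03 after 8 days and 0.09 after 13 days, a difference of 0.1141 (SE 0.062, limma adjusted p = 1). No difference passed the adjustment.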

How the results depend on the processing

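The count of retinoid probes called was 0 in all 6 comparisons under all 30 alternatives, including those that leave out each pool in turn. Over all probes, the 11 calls of 13 days became 9 with every local background subtracted and 11 with 1 background per array and colour, both chosen after seeing the data, 3 with the software's log ratio, 0 with an offset of 0, with median centring, with the deposited table and with a trended robust fit, 76 on original arrays alone, and 15 to 23 in fits of 20 arrays. Leaving out 1 pool gave 6 to 12. Of 44 ratios (11 probes at 4 time points) under 30 alternatives, 1220 of 1320 values moved by less than the spread between pools and 46 changed sign, in 23 of the 44. Median centring in place of loess changed 13 signs. Without 1 pool, Aldh1a3 after 13 days ranged from -0.52 to -0.37. Pool numbers stand for slides, but pool 1 also has the original array alone and pool 3 was scanned on day 2. Slide, dye and scan day thus cannot be told apart in what same-numbered pools share. Deviations of same-numbered pools correlated at -0.0848 to 0.45 (median 0.222), over 0.1 in 13 of 18 pairs. The median was 0.334 for number 1, 0.196 for number 2 and 0.182 for number 3. Those of different-numbered pools had a median of -0.112, over 0.1 in 6 of 36 pairs. Of the 12 pools, 10 correlated best with their own number. The main fit did not use the numbers, so variation shared by same-numbered pools stayed in its error. With the replicate block, 0 retinoid probes were called in each comparison, and the calls over all probes at 13 days were 14. On original arrays alone the adjusted p of Stra6 was 0.0112 after 8 days and 0.0428 after 13 days, and that of Aldh1a1 was 0.0448 after acute stress, where dye and stress cannot be told apart. Signal over background limits Crabp1 and the third Rarb probe.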
